A study of Mus musculus with 17 samples.

Results

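Zfp42, Fbxo15, Tfcp2l1, Nr5a2, Tbx3, Sall4, Utf1, Tdgf1 and Gdf3 are 9 genes that lie around the core factors Pou5f1, Nanog and Sox2 in the network of naive pluripotency. They were followed from the mouse oocyte to the blastocyst. Members were the probe sets that the platform annotates to exactly 1 of these symbols, which gave 12 of the 12488 probe sets on the Affymetrix MG-U74Av2 array, for 9 of the 8252 genes that have such a probe set. Tfcp2l1, Nr5a2 and Gdf3 had 2 probe sets each and the other genes 1.

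The study hybridised 17 single-colour arrays, 1 per sample. Oocytes and 8-cell embryos have 4 arrays each, and the 1-cell, 2-cell and blastocyst stages 3 each. All groups share their preparation, in which RNA was amplified in 2 rounds by in vitro transcription, and no treatment or genetic change is named. The labels do not give the strain, the number of embryos behind a sample or the maturity of the oocytes. Nothing in them says that the replicates are separate collections of embryos, so a p-value here measures the spread between samples alone, and that spread may be technical.

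Naive pluripotency is the state of the inner cell mass of the blastocyst and of embryonic stem cells held with leukaemia inhibitory factor (LIF), from which every lineage of the body can form. Pou5f1, Nanog and Sox2 occupy regulatory regions of many genes, and a wider ring of factors feeds back on them or reports their activity. Among the transcription factors of that ring, Zfp42 (Rex1) is a zinc finger protein used as a marker of the naive state, Tfcp2l1 is a factor of the CP2 family downstream of LIF and Stat3, and Nr5a2 is an orphan nuclear receptor that can bind regulatory DNA of Pou5f1. Tbx3 is a T-box factor and Sall4 a spalt-type zinc finger protein found with the nucleosome remodelling complex NuRD. Utf1 is a chromatin-associated cofactor and Fbxo15 an F-box protein, a class that gives SCF ubiquitin ligases their substrates; both are known targets of Pou5f1 and Sox2. Gdf3 is a secreted ligand of the TGF-beta superfamily, and Tdgf1 (Cripto) is the membrane-bound co-receptor for Nodal and related ligands.

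Promoter sequence was at hand for 5 of the 9 genes. The stretches shown are the 250 bases before the start of 4 of those genes, whose highest stage mean was in the blastocyst. They are from RefSeq (build GRCm38.p6), 5′ to 3′ on the strand of the gene, with capitals for the motifs found. Zfp42 lies at chr8:43307010-43307259 (minus strand), Tfcp2l1 at chr1:118627695-118627944 (plus), Utf1 at chr7:139943606-139943855 (plus) and Tdgf1 at chr9:110946159-110946408 (minus).
Zfp42: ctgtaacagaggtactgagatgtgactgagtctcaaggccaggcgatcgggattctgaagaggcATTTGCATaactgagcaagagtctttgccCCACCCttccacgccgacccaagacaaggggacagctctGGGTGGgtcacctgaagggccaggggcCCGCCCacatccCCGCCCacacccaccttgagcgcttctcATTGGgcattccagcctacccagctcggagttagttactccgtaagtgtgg
Tfcp2l1: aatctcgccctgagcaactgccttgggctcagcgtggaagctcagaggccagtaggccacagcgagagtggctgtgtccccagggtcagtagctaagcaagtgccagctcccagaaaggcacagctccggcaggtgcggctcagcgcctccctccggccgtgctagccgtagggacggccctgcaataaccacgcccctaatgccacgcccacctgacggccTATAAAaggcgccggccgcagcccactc
Utf1: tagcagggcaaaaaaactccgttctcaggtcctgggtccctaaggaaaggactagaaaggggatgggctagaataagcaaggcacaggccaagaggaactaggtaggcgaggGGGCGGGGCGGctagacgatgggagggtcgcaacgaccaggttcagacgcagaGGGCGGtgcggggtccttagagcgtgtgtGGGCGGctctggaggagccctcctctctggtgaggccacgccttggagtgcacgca
Tdgf1: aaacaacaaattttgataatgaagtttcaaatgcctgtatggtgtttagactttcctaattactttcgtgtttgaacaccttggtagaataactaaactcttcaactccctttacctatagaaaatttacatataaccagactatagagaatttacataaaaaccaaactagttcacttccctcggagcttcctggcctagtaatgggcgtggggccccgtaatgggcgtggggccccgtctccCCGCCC

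Both strands were searched for the letters ATTTGCAT (POU octamer). The letters ATTGTT (SOX site), AAGGTCA (half-site of orphan nuclear receptors), CCACCC (Krüppel-like factor box), GGGCGG (Sp factor box), TATAAA (the core promoter box) and CCAAT were searched in the same way. The octamer, the letters read by the family of Pou5f1, stood in the Zfp42 window 186 to 179 bases before the start, and 1.60% of the 32851 windows of this length in the table hold it. The Zfp42 window also held 2 Krüppel-like factor boxes (in 28.1% of windows), 2 Sp boxes (in 32.7%) and the letters CCAAT (in 33.8%). The Utf1 window held 4 Sp boxes, of which those at 138 to 133 and 133 to 128 bases before the start share 1 base. Tfcp2l1 had TATAAA 28 to 23 bases before its start (in 12.4% of windows), and Tdgf1 an Sp box that ends at the last base shown. The SOX letters (in 9.42% of windows) and the half-site (in 4.08%) were in none of the members' windows. Base composition differed among them: the Tfcp2l1 window had a GC content of 65.2% and 16 CpG dinucleotides and the Tdgf1 window 42.0% and 7, beside medians of 52.4% and 6 over all windows. Nr5a2 had 2 start windows, at chr1:136953631-136953880 and chr1:136960449-136960698 (both minus strand). The former held 2 Krüppel-like factor boxes and CCAAT, and the latter TATAAA 181 to 176 bases before its start. A match of letters is not evidence of binding.

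Signals are given on the authors' linear scale, on which an array's median lay between 34.05 and 49.15. The 1-cell, 2-cell, 8-cell and blastocyst steps are the changes to that stage from the stage before it in the series. Differences are between stage means of log2(signal + 10.7), with a standard error (SE), and understate the change of dim genes. Tests covered probe sets brighter than 41.1, the median of all values, on 3 or more arrays, and a call was made at a Benjamini-Hochberg adjusted p below 0.05 over the 8067 tested in limma. Of the 12 member probe sets, 11 passed this filter. The number of arrays limits the precision. The arrays of whole embryos cannot tell fewer cells with a transcript apart from less transcript per cell.

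Within a stage, arrays had pairwise correlations of 0.934 to 0.979 across probe sets, and each array's best match at another stage was 0.742 to 0.891. The summed signal of 10 oocyte marker genes fell from 33106.8 to 36091.2 on oocyte arrays to 259.3 to 341.1 on blastocyst arrays. All 10 were called lower, as were 32.1% of all tested probe sets. All 12 tested trophectoderm markers were called higher in the blastocyst than in the oocyte, as were 32.2% of all tested probe sets. The 13 measured trophectoderm markers summed to 1433.2 to 1741.3 in the oocyte and 11156.7 to 13210.8 in the blastocyst. Cdx2, a defining one, nevertheless stayed between 1.2 and 15.8 on all arrays. The blastocyst arrays hold inner cell mass and trophectoderm together. Primitive endoderm markers were called higher from 8-cell to blastocyst for 7 of 11 and lower for 1 (21.8% and 20.8% of all tested probe sets). The 1 lower was Gata6, at -0.91, which turned to 0.24 and was not called under spike scaling. Gata4 (-0.40), Col4a2 (0.19) and Sox7 (0.14) were not called. Dab2, among those called higher, is also in the trophectoderm list. Cumulus and granulosa markers summed to 117.8 to 382.9 and blood markers to 73.0 to 309.0 on any array. Oviduct and uterus markers were called higher at the 2-cell stage than at the 1-cell stage for 5 of 8 (25.9% of all tested probe sets). Their summed signal of 550.7 to 7795.9 at the 8-cell stage was set at the top by Ovgp1, the oviduct-secreted glycoprotein, which read 6212.4 on 8-Cell replicate 2 and 43.1 to 114.1 on the other 8-cell arrays. Ovgp1 also read 1271.8, 714.7 and 688.1 on the 2-cell arrays, beside 22.5 to 56.4 on oocyte and 1-cell arrays. Its second probe set read 454.9 to 748.3 on the 2-cell arrays and 1.4 to 21.5 before. Blood markers summed to 226.3 to 309.0 at the 2-cell stage, beside 73.0 to 117.8 in the oocyte and 91.8 to 157.1 at the 1-cell stage. On 8-Cell replicate 2, 8 of the 11 tested member probe sets lay within the range of the other 8-cell arrays. Tfcp2l1 97193_at, Tbx3 and Sall4 lay outside it. The share of all tested probe sets within that range was not computed, so this count cannot tell whether the members were affected. No marker gene, on its probe set with the highest mean, read 0 on every array of a stage. The part of the marked cell types in the members' values was not tested.

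More member probe sets were called higher at the 8-cell step than at any other consecutive step, and at the blastocyst step 6 rose further while 4 fell. From oocyte to 1-cell, 2 of the 11 tested probe sets were called higher and 1 lower, where 17.3% and 19.8% of all tested probe sets were. From 1-cell to 2-cell, 6 were called higher and 1 lower (25.9% and 21.2% of all). From 2-cell to 8-cell, 10 were called higher (25.8% of all were, and 28.3% lower), and the 1 not called was Sall4. From 8-cell to blastocyst, 6 were called higher and 4 lower (21.8% and 20.8% of all). The blastocyst was above the oocyte for 10 (32.2% of all were higher and 32.1% lower), again without a call for Sall4. The median member difference was 1.66 from 2-cell to 8-cell and 2.70 from oocyte to blastocyst, beside medians of -0.06 and -0.07 over all tested probe sets. These counts are of limited weight: 6 of the 11 probe sets were at or under 41.1 on every oocyte and 1-cell array and passed the filter only through later stages.

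How each array is scaled mattered for the directions at some steps. On 9 probe sets for hybridisation spike controls, transcripts added before hybridisation, mean log2 signal was 9.56 in the oocyte, 10.70 at the 1-cell, 10.47 at the 2-cell and 11.12 at the 8-cell stage and 9.93 in the blastocyst. Scaling on these controls moved the median of all probe sets from 0.04 to -0.89 for 1-cell minus oocyte, from 0.06 to 0.23 for 2-cell minus 1-cell, from -0.06 to -0.59 for 8-cell minus 2-cell, from -0.09 to 0.90 for blastocyst minus 8-cell and from -0.07 to -0.39 for blastocyst minus oocyte. The split of calls over all probe sets went from 1398 higher and 1595 lower to 30 and 4626 at the 1-cell step. It went from 2090 and 1712 to 1911 and 884 at the 2-cell step, from 2080 and 2279 to 842 and 3237 at the 8-cell step, and from 1759 and 1674 to 4632 and 192 at the blastocyst step. For blastocyst minus oocyte it went from 2597 and 2588 to 1860 and 2992. Centring arrays on their median gave 1612 and 2436 at the 2-cell step. Where a member's direction turned under spike scaling and was called with or without that scaling, it is stated beside the result. Under it, 8 of the 11 member probe sets were called higher and 1 lower at the 8-cell step, and 10 were again higher in the blastocyst than in the oocyte. At the 1-cell step 3 were lower and the other 8 not called, at the 2-cell step 5 were higher and 6 not called, and at the blastocyst step 7 were higher and 1, Fbxo15, lower.

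**Figure D1:**
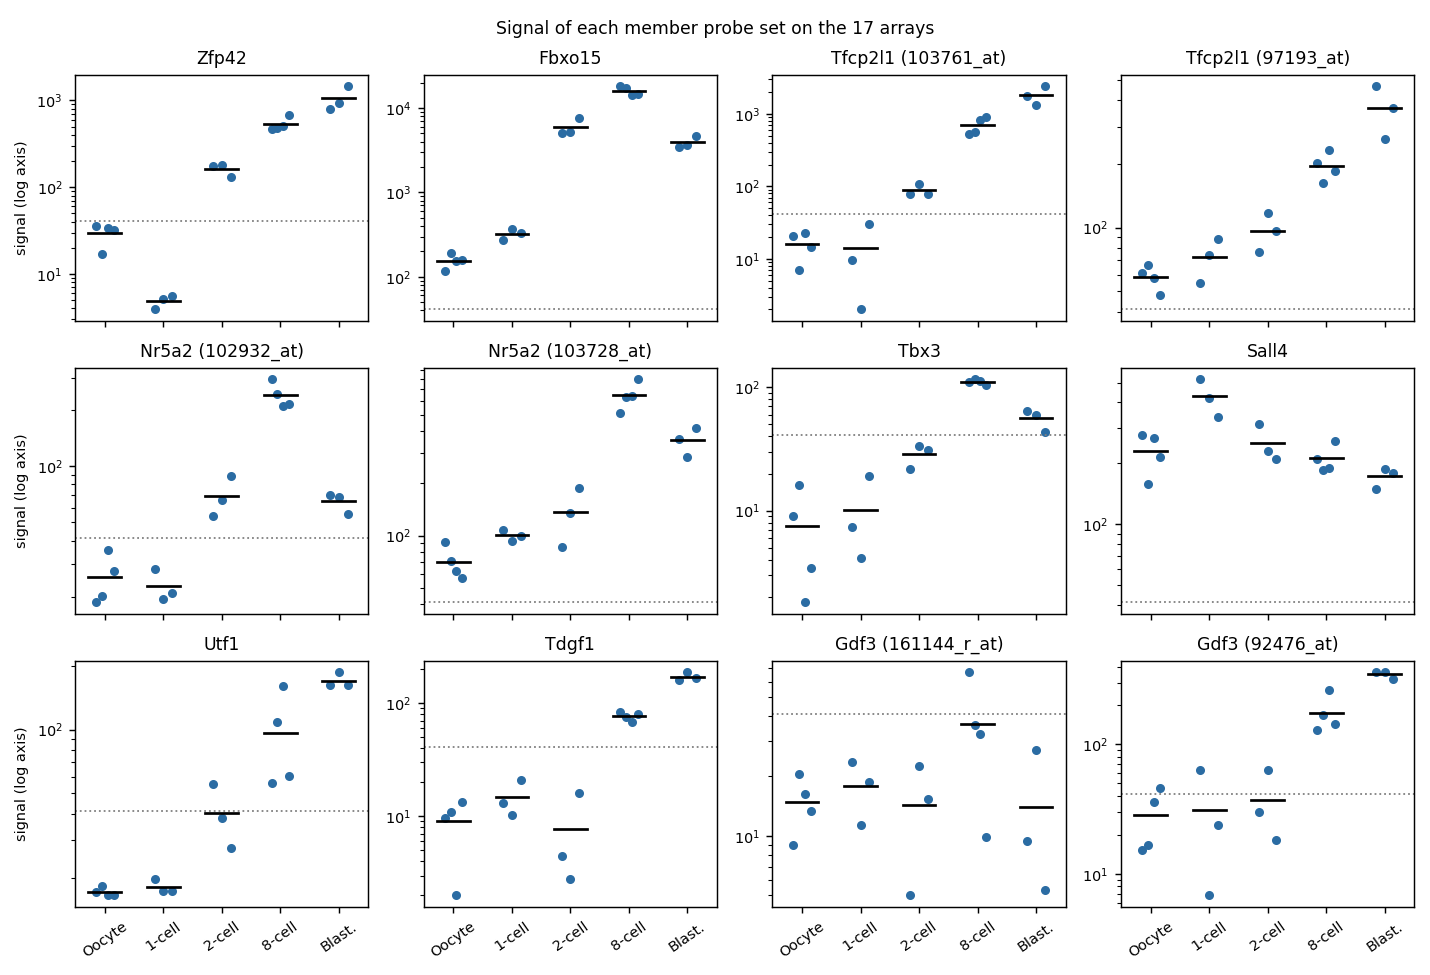
Signal on each of the 17 arrays (log axis, authors' linear scale) for the 12 member probe sets by stage, with dots for arrays, bars for stage means and a dotted line at 41.1, the filter on dim signals. Fbxo15 reaches 18376.2 at the 8-cell stage, Sall4 is above the line on every array, and the second Gdf3 probe set exceeds it on 1 array.

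Zfp42, Tfcp2l1, Utf1, Tdgf1 and Gdf3 had their highest stage mean in the blastocyst. Zfp42 read 35.9, 17, 34.1 and 31.7 on the oocyte arrays and 3.9, 5.2 and 5.6 on the 1-cell arrays. It then read 173.4, 178.4 and 129.4 at the 2-cell stage, 474.2, 485.8, 512.7 and 676.4 at the 8-cell stage, and 790.9, 938.9 and 1477.2 in the blastocyst. The arrays of neighbouring stages did not overlap at any step. Zfp42 was lower at the 1-cell stage than in the oocyte by a difference of -1.34 ± 0.23 (SE; limma, adjusted p = 6.65e-05), between values that were all under the filter. It rose by 3.44 ± 0.24 to the 2-cell stage (limma, adjusted p = 1.29e-10), by 1.68 ± 0.23 to the 8-cell stage (1.86e-06) and by 0.94 ± 0.23 to the blastocyst (0.00196). From oocyte to blastocyst the rise was 4.72 ± 0.23, or 26.3-fold on the offset scale (limma, adjusted p = 1.09e-13).

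Tfcp2l1, on its probe set 103761_at, had the largest rise from oocyte to blastocyst among the 11 tested member probe sets. It read 20.4, 7.1, 22.9 and 14.4 in the oocyte, 9.7, 2.0 and 30.2 at the 1-cell stage and 77.8, 108 and 77.4 at the 2-cell stage. At the 8-cell stage it read 524.5, 559.7, 829.6 and 900.6, and in the blastocyst 1743.9, 1314.5 and 2449.9. Oocyte and 1-cell arrays overlapped, and every later stage lay above all earlier ones. The differences were 2.15 ± 0.34 at the 2-cell step (limma, adjusted p = 1.87e-05), 2.83 ± 0.32 at the 8-cell step (1.48e-07) and 1.36 ± 0.32 at the blastocyst step (0.00162), and 6.10 ± 0.32 or 68.4-fold from oocyte to blastocyst (4.64e-13). The other probe set, 97193_at, also rose to the blastocyst, over a narrower range. Its stage means ± SD were 58.3 ± 7.62 in the oocyte (n = 4), 72.4 ± 17.1 at the 1-cell (n = 3), 96.8 ± 20.5 at the 2-cell (n = 3) and 195.6 ± 30.1 at the 8-cell stage (n = 4) and 366.6 ± 103.1 in the blastocyst (n = 3). Its rise at the 2-cell step, 0.37 ± 0.23, was not called (limma, adjusted p = 0.199), whereas those at the 8-cell step (0.95 ± 0.22, 8.14e-04) and blastocyst step (0.85 ± 0.22, 0.00324) were. The 8-cell call was lost under spike scaling, with 0.34 and an adjusted p of 0.413. The probe sets correlated at 0.952 over the 17 arrays. Their means placed the oocyte and the 1-cell stage in opposite order, a difference called on neither.

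Utf1 was flat before the 2-cell stage, reading 17.2, 18.3, 16.5 and 16.5 in the oocyte and 19.7, 17.4 and 17.3 at the 1-cell stage. It read 55.1, 38.4 and 27.5 at the 2-cell stage, 56.2, 108.8, 160.1 and 60.2 at the 8-cell stage and 161.8, 187.4 and 162.4 in the blastocyst. All 8-cell arrays were above all 2-cell arrays and below all blastocyst arrays, but the 8-cell arrays spread widely among themselves. The rise at the 8-cell step was 0.99 ± 0.28 (limma, adjusted p = 0.00460) and at the blastocyst step 0.87 ± 0.28 (0.0161). From oocyte to blastocyst it was 2.70 ± 0.28 (limma, adjusted p = 2.25e-08). The small rise at the 2-cell step, 0.79 ± 0.30 with an adjusted p of 0.0341, was lost under 5 other settings (adjusted p 0.0532 to 0.170) and without any of 5 arrays, 1-Cell replicates 1, 2 and 3 and 2-Cell replicates 1 and 2 (0.0551 to 0.153). The blastocyst step was lost without 8-Cell replicate 1, 8-Cell replicate 4 or Blastocyst replicate 2 (0.0536 to 0.0595). Under spike scaling the 8-cell step fell to 0.42 (adjusted p = 0.316).

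The ligand Gdf3 and its co-receptor Tdgf1 were first called higher at the 8-cell step. Tdgf1 read 9.7, 11, 2.0 and 13.4 in the oocyte, 13.0, 10.2 and 20.8 at the 1-cell stage and 4.5, 2.8 and 16 at the 2-cell stage. At the 8-cell stage it read 83.5, 75.1, 68.2 and 79.9, and in the blastocyst 159.9, 188.2 and 165.2. The first 3 stages overlapped and were under the filter on every array, and the 8-cell and blastocyst arrays formed separate steps above them. Tdgf1 rose by 2.31 ± 0.27 at the 8-cell step (limma, adjusted p = 3.05e-07), by 1.06 ± 0.27 at the blastocyst step (0.00362) and by 3.24 ± 0.27 from oocyte to blastocyst (9.84e-10). The blastocyst step was lost with an offset of 1 (0.0845). The name of its probe set, 93002_r_at, marks a set for which some probe selection rules were dropped. Processed copies of Tdgf1 in the genome may hybridise to it.

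Gdf3 on 92476_at read 15.3, 16.7, 35.9 and 45.8 in the oocyte, 63.5, 6.8 and 23.9 at the 1-cell stage and 29.9, 63.0 and 18.1 at the 2-cell stage. It read 128.3, 168.5, 263.9 and 143.7 at the 8-cell stage and 362.9, 364.0 and 320.0 in the blastocyst. The first 3 stages overlapped throughout, and the spread between their arrays was wide for so dim a signal. The 2-cell step, 0.31 and not called (limma, adjusted p = 0.584), was called with array weights (1.16, 0.0155). Gdf3 rose by 2.03 ± 0.40 at the 8-cell step (limma, adjusted p = 1.70e-04) and by 3.28 ± 0.40 from oocyte to blastocyst (2.46e-07). The blastocyst step, 0.99 ± 0.40, was just past the threshold (limma, adjusted p = 0.0488) although the arrays did not overlap. It was lost under 6 other settings (adjusted p 0.0588 to 0.138) and without any of 10 arrays (0.0506 to 0.117): Oocyte replicates 2 and 3, 1-Cell replicate 3, 2-Cell replicate 1, 8-Cell replicates 1, 2 and 4, and every blastocyst replicate. The other Gdf3 probe set, 161144_r_at, ranged from 5.0 to 67.2, exceeded the filter on 8-Cell replicate 1 alone, and was not tested.

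**Figure D2:**
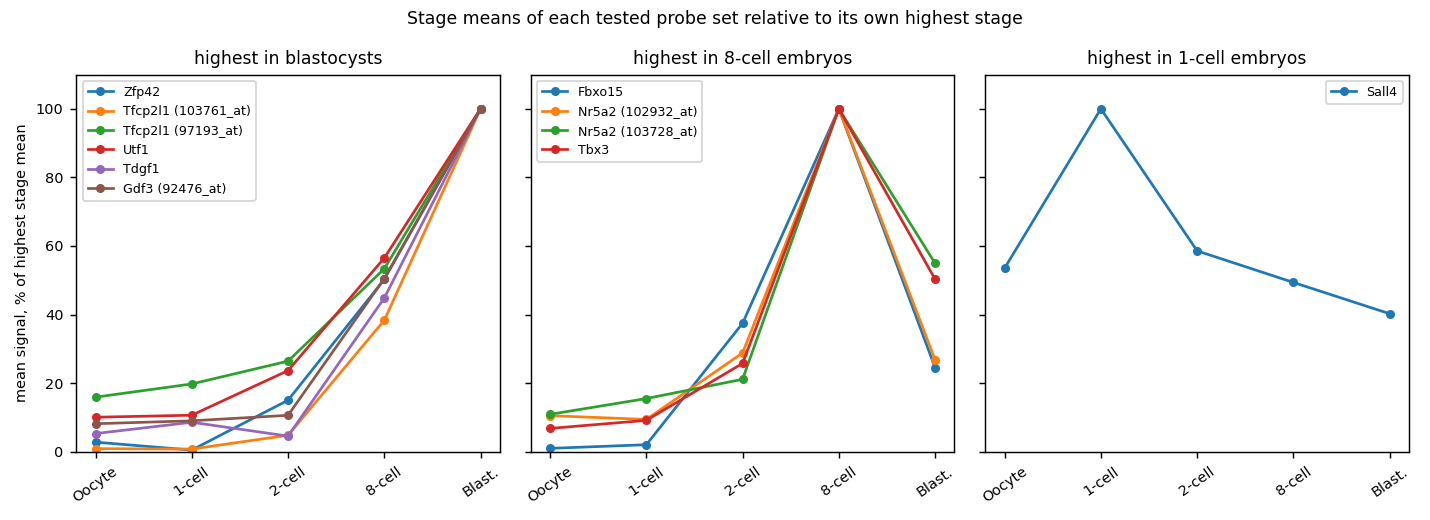
Stage means as a percent of each probe set's own highest stage mean, in panels for probe sets highest in the blastocyst, highest at the 8-cell stage and for Sall4, one line per tested probe set. Fbxo15 keeps 24.5% of its 8-cell mean in the blastocyst and Tbx3 50.3%.

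Fbxo15, Nr5a2 and Tbx3 had their highest stage mean at the 8-cell stage and were lower in the blastocyst. Fbxo15 read 116.0, 191.4, 153.5 and 158.5 in the oocyte and 272.0, 372.9 and 327.7 at the 1-cell stage. It read 5096.4, 5268.0 and 7649.2 at the 2-cell stage, 18376.2, 17129.8, 14086.7 and 14532.1 at the 8-cell stage and 3456.3, 3623.6 and 4689.1 in the blastocyst. All stages were separate, and the oocyte and 1-cell arrays were already above the filter. The rise at the 2-cell step was 4.15 ± 0.20 (limma, adjusted p = 2.45e-13) and at the 8-cell step 1.43 ± 0.18 (9.19e-07), and the 8-cell stage stood 6.61 ± 0.17 or 97.6-fold above the oocyte. Fbxo15 then fell by 2.03 ± 0.18 on the log2 scale to the blastocyst (limma, adjusted p = 1.75e-08). That fall was called under spike scaling too, at -0.84 (adjusted p = 0.0169). The first rise, 1.02 ± 0.18 from oocyte to 1-cell (limma, adjusted p = 1.30e-04), turned to -0.049 under spike scaling (0.896). The blastocyst was below the 2-cell stage by a difference of -0.60 ± 0.20 (limma, adjusted p = 0.0120), a call lost under median centring (0.126) and spike scaling (0.901).

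Nr5a2 was measured by a pair of probe sets, both highest at the 8-cell stage, that placed the blastocyst differently against the 2-cell stage. On 102932_at it read 18.6, 20.2, 35.5 and 27.4 in the oocyte, 28.2, 19.3 and 20.9 at the 1-cell stage and 54.5, 65.7 and 89.1 at the 2-cell stage. It read 295.8, 245.5, 211.2 and 216.7 at the 8-cell stage and 70.5, 68.4 and 55.7 in the blastocyst. The blastocyst arrays thus lay within the range of the 2-cell arrays, with a difference of -0.07 (limma, adjusted p = 0.807). This probe set rose by 1.25 ± 0.24 at the 2-cell step (limma, adjusted p = 1.54e-04) and by 1.66 ± 0.22 at the 8-cell step (1.72e-06), and fell by 1.74 ± 0.22 on the log2 scale at the blastocyst step (2.10e-06). On 103728_at it read 91.3, 71.3, 62.3 and 57.1 in the oocyte, 107.8, 93.0 and 100 at the 1-cell stage and 86.4, 135.4 and 188.3 at the 2-cell stage. It read 511.7, 631.8, 642.3 and 804.1 at the 8-cell stage and 361.8, 285.7 and 419.3 in the blastocyst. Here the blastocyst arrays stood clear of the 2-cell arrays, by 1.36, and the 2-cell arrays overlapped the 1-cell arrays. The rise at the 8-cell step was 2.20 ± 0.22 (limma, adjusted p = 2.79e-08) and the difference at the blastocyst step -0.84 ± 0.22 (0.00409). The fall to the blastocyst rested on the scaling for both: under spike scaling it was -0.64 with an adjusted p of 0.0741 on 102932_at and turned to 0.32 (0.415) on 103728_at. Both were above the oocyte in the blastocyst, by 1.08 ± 0.22 (limma, adjusted p = 2.22e-04) and 2.17 ± 0.22 (1.95e-08). Whether the probe sets read transcripts from different starts was not tested.

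Tbx3 read 9.0, 16, 1.8 and 3.4 in the oocyte, 7.4, 4.1 and 19.0 at the 1-cell stage and 21.7, 33.3 and 31.0 at the 2-cell stage. It read 111.2, 117.4, 113.0 and 103.8 at the 8-cell stage and 64.6, 59.8 and 43.6 in the blastocyst. The 8-cell arrays were close together and above all others, and only 8-cell and blastocyst arrays exceeded the filter. Tbx3 rose by 1.64 ± 0.29 at the 8-cell step (limma, adjusted p = 4.57e-05) and stood 1.92 ± 0.29 above the oocyte in the blastocyst (4.35e-06). The rise of 0.97 ± 0.31 at the 2-cell step (limma, adjusted p = 0.0123) was lost under median centring (0.0522) and without 1-Cell replicate 2 (0.0761). The difference of -0.88 ± 0.29 at the blastocyst step (limma, adjusted p = 0.0164) was lost with an offset of 1 (0.137) and without Blastocyst replicate 3 (0.0823), and turned to 0.16 under spike scaling (0.711).

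Sall4 alone among the tested member probe sets had its highest mean at the 1-cell stage. It read 275.2, 158.4, 268.2 and 215.2 in the oocyte, 523.2, 422.1 and 339.6 at the 1-cell stage and 314.0, 229.3 and 209.2 at the 2-cell stage. It read 210.7, 186.1, 189.9 and 258.9 at the 8-cell stage and 149.1, 188.5 and 179.3 in the blastocyst. The 1-cell arrays lay above all others, and the arrays of the other stages overlapped from each stage to the next. Sall4 was higher at the 1-cell stage than in the oocyte by 0.88 ± 0.21 (limma, adjusted p = 0.00173), which turned to -0.22 under spike scaling (0.587). It was lower at the 2-cell stage by a difference of -0.75 ± 0.22 (limma, adjusted p = 0.00783), a call lost without 1-Cell replicate 1 (-0.59, 0.0531) and under spike scaling (-0.52, 0.291). The later steps, -0.23 (limma, adjusted p = 0.378) and -0.27 (0.304), were not called. Under spike scaling both were called and the second had the opposite sign, at -0.83 (0.0362) and 0.84 (0.0289). Blastocyst minus oocyte was -0.37 and not called (limma, adjusted p = 0.127), although it passed without Oocyte replicate 2 (-0.52, 0.0298) and with array weights (-0.48, 0.0178).

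**Figure D3:**
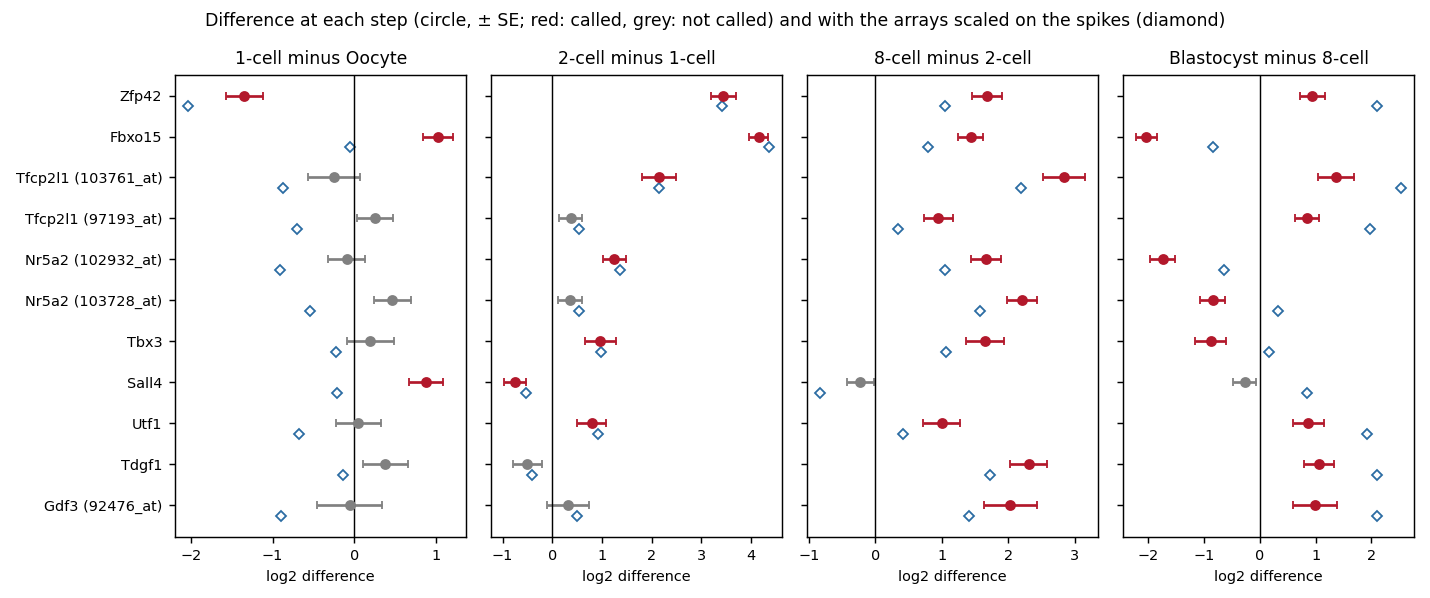
Difference in log2(signal + 10.7), on the horizontal axis, at each of the 4 consecutive steps for the 11 tested member probe sets, with circles for the estimate ± SE (red where called, grey where not) and blue diamonds for spike scaling. At the 8-cell step 10 circles are red and right of 0. At the blastocyst step 6 red circles are right of 0 and 4 left of it, and every diamond lies further right than its circle.

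Each probe set's stages were then put in order and neighbours compared. They all differed for Zfp42 and Fbxo15. For both Tfcp2l1 and both Nr5a2 probe sets, Tbx3, Utf1, Tdgf1 and Gdf3, the oocyte was not told apart from the 1-cell stage. The 2-cell stage was not told apart from the 1-cell stage on 97193_at (Tfcp2l1) and 103728_at (Nr5a2), nor from the oocyte for Tdgf1 and Gdf3. The 2-cell stage was above the oocyte on 97193_at by 0.63 (limma, adjusted p = 0.0195) and on 103728_at by 0.82 (0.00407). Neither was called under median centring (0.149 and 0.0566) or spike scaling, under which they turned to -0.17 (0.692) and -0.0024 (0.996), and 97193_at was not called under quantile normalization either (0.0701). For Sall4 the sole pair of neighbours that differed was the 1-cell and 2-cell stage.

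Over the 17 arrays the members apart from Sall4 varied together. Across 43 pairs of probe sets of different genes, Pearson correlations of log2(signal + 10.7) ran from 0.570 (Nr5a2 102932_at with Tdgf1) to 0.966 (Zfp42 with Tfcp2l1 103761_at). Tfcp2l1 103761_at with Utf1 gave 0.941 and Utf1 with Gdf3 0.913, all highest in the blastocyst. Nr5a2 103728_at with Tbx3 gave 0.942 and Fbxo15 with Tbx3 0.905, highest at the 8-cell stage. The ligand Gdf3 and the co-receptor Tdgf1 correlated at 0.875. Sall4 ran against all of them, at -0.665 to -0.417 over 10 pairs. The arrays share their stages and their scaling, so these values describe stage profiles and carry no test. As 6 of the 11 probe sets passed the filter only through later stages, positive values among them were partly fixed in advance. No range over pairs of other tested probe sets was computed.

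**Figure D4:**
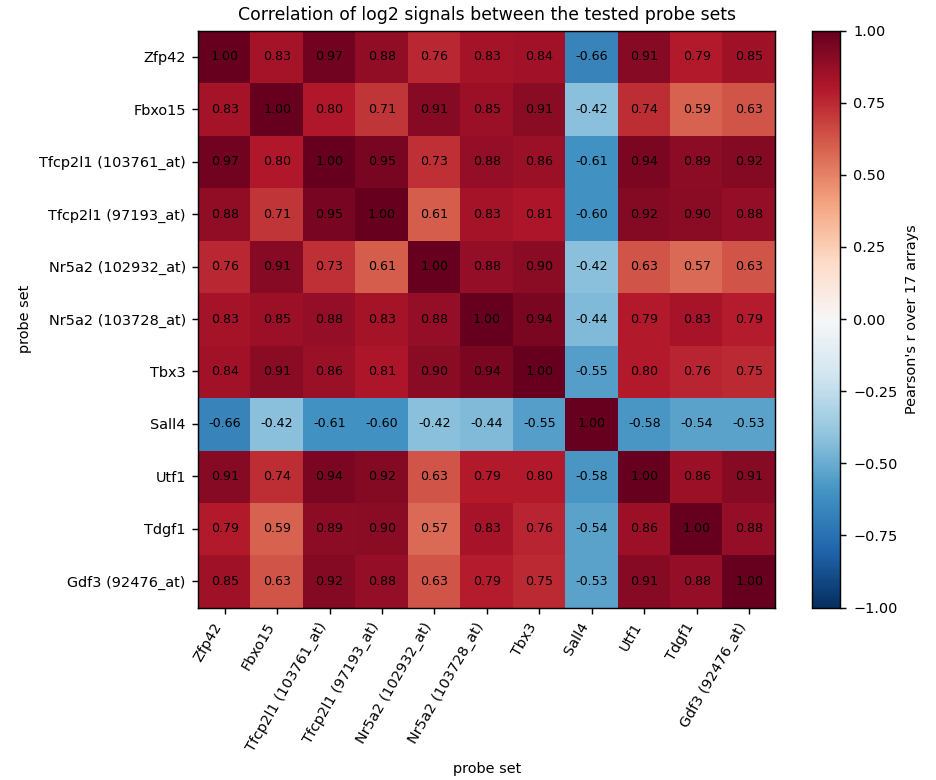
Pearson correlation of log2(signal + 10.7) over the 17 arrays for each pair of the 11 tested member probe sets, as a colour scale with the value in each cell. Zfp42 with Tfcp2l1 103761_at has 0.966, and all 10 values in the Sall4 row outside the diagonal are below 0.

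Among all tested probe sets of single genes, the 3 most like each member were found by the same correlation. Zfp42 was matched by the co-chaperone Fkbp4 (0.985), the mitochondrial protein Mtch2 (0.983) and the probe set named Mir686 (0.983). For Fbxo15 they were the polyamine enzyme Sat1 (0.996), Uqcc3 (0.987) and the glycolytic enzyme Pgam1 (0.986). Tfcp2l1 103761_at was matched by Renbp (0.983), Gmppb (0.983) and Alg5 (0.982), and 97193_at by Eci2 (0.964), Hexa (0.964) and Ciao2a (0.962). For Nr5a2 102932_at they were the lysosomal protease Ctsz (0.975), the trophectoderm factor Tead4 (0.968) and Alppl2 (0.967), and for 103728_at Atp6ap1 (0.982), Npc2 (0.982) and Zfp568 (0.981). Tbx3 lay nearest Snx5 (0.967), Rab24 (0.963) and Strn3 (0.960), Utf1 nearest Plec (0.965), Slc25a39 (0.964) and Anxa3 (0.959). Tdgf1 lay nearest Serbp1 (0.968), Bpnt2 (0.967) and Slc7a6 (0.966), and Gdf3 nearest Mrps34 (0.955), Ap2m1 (0.948) and Mapt (0.947). Sall4 had the lowest best matches, Numb (0.909), Csnk2a2 (0.889) and Matr3 (0.888).

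The core factors did not share 1 course with the members. Nanog resembled the members that appeared at the 8-cell stage, with stage means of 19.7 ± 4.44, 20.2 ± 4.51 and 38.0 ± 11.9 (SD) up to the 2-cell stage, then 1070 ± 133 and 1726 ± 87.1, and a rise of 4.50 ± 0.19 at the 8-cell step. Its rise of 0.63 ± 0.21 at the 2-cell step was not called under quantile normalization, median centring or spike scaling. Sox2 was called higher at the 2-cell step (0.96 ± 0.25), lower at the 8-cell step (-0.62 ± 0.24, not called under quantile normalization or median centring) and higher by 3.67 ± 0.24 at the blastocyst step. Pou5f1 was present from the oocyte (mean 289) and was called at the 8-cell step alone among the 4 (1.01 ± 0.20), which was not called under spike scaling (0.37). All 3 were higher in the blastocyst than in the oocyte, although Pou5f1 was not called there under spike scaling.

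Of 42 further genes of the pluripotency network, 25 were tested, among them Tead4, which is also in the trophectoderm list. At the 2-cell step 12 were called higher and 5 lower (25.9% and 21.2% of all tested probe sets), and at the 8-cell step 9 and 7 (25.8% and 28.3%). The counts were 7 and 10 at the blastocyst step (21.8% and 20.8%). They were 16 and 4 from oocyte to blastocyst (32.2% and 32.1%), with a median of 1.20 for the last. Under spike scaling these counts were 11 and 3, 7 and 9, 14 and 1, and 13 and 4, so that the splits at the 8-cell and blastocyst steps turned. The Krüppel-like factors that sustain the naive state rose before the blastocyst stage. Klf4 rose by 3.04 and Klf5 by 2.73 at the 2-cell step, and by 1.63 and 2.11 at the 8-cell step. Klf2 was not called at the 2-cell step (0.04) and rose by 2.61 at the 8-cell step. Klf4 and Klf2 were then lower in the blastocyst, by differences of -1.33 and -1.36 that were not called under spike scaling. Dppa4 rose by 5.35 at the 2-cell step. Tcl1 and Gbx2 fell at the 8-cell step, by 5.34 and 3.40 on the log2 scale. The LIF feedback inhibitor Socs3 rose by 4.25 at the 2-cell step. Esrrb (6.0 to 39.9) and Nr0b1 (4.5 to 38.0), nuclear receptors of the same network as Nr5a2, were under the filter on all arrays.

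The pathway of Gdf3 and Tdgf1 was counted next. Of 30 genes of Nodal and Activin signalling, 17 were tested. At the 8-cell step 5 were called higher and 2 lower (25.8% and 28.3% of all tested probe sets). The counts were 5 and 2 at the blastocyst step (21.8% and 20.8%). From oocyte to blastocyst they were 5 and 7 (32.2% and 32.1%), with a median of -0.08. Under spike scaling the split was 1 higher and 5 lower at the 8-cell step, 12 higher with the other 5 not called at the blastocyst step, and 3 and 7 from oocyte to blastocyst. The ligand Nodal itself stayed between 9.7 and 34.1, the transcription factor Foxh1 between 4.1 and 22.2 and Smad3 between 3.0 and 33.3, all under the filter. Cfc1, the relative of Tdgf1, was not called at any step. Receptors moved both ways. Acvr2a fell by 0.84 on the log2 scale at the 2-cell step, not called under spike scaling (-0.66), and rose by 1.57 at the 8-cell step. Acvr1b rose by 1.06 at the 8-cell step, not called under spike scaling (0.60). From oocyte to blastocyst Acvr2a (0.22) and Acvr1b (-0.084) were not called. Acvr2b rose by 1.33 at the 1-cell step, not called under spike scaling (0.29), fell by 1.24 on the log2 scale at the 2-cell step, and rose by 1.95 at the blastocyst step and by 1.37 from oocyte to blastocyst. The co-repressor Tgif1 rose by 0.86 at the 8-cell step, not called under spike scaling (0.27), and by 1.89 at the blastocyst step. The inhibitory Smad7 rose by 2.98 at the 2-cell step. The shared mediator Smad4 and the ligand-processing protease Furin fell at that step, by 2.19 and 1.74 on the log2 scale. At the 8-cell step Smad4 and Furin rose by 0.96 and 0.44, not called under spike scaling (0.34 and -0.18). Smad4 rose by 0.86 at the blastocyst step. Blastocyst minus oocyte was -0.52 for Smad4, not called under median centring, and -0.80 for Furin. The Nodal antagonist Lefty1 was higher in the blastocyst than in the oocyte by 0.89, not called under spike scaling (0.62).

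Few genes of the later, primed epiblast could be measured. Of 16 listed, 8 were tested. At the 8-cell step 4 were called lower and the other 4 were not called (25.8% of all tested probe sets were higher and 28.3% lower). With quantile normalization or median centring, 2 were called higher and 4 lower. Fgf5 stayed between 1.0 and 13.5 and Pou3f1 between 4.7 and 13.5. Eomes, which is also a trophectoderm gene, rose by 3.94 at the blastocyst step.

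Close relatives of the members were counted in the same way. Of 27 such genes, 12 were tested, and 1 was called higher and 4 lower at the 8-cell step, beside 25.8% and 28.3% of all tested probe sets. The 1 that was higher was Yy1, the zinc finger factor from whose family Zfp42 arose, with 0.61 at this step, which turned to -0.03 under spike scaling, and 1.57 at the 2-cell step. Nr5a1, the other receptor of the Nr5a family, was not called at any step. Tfcp2, of the CP2 family, rose by 0.92 at the 2-cell step and was lower in the blastocyst by a difference of -1.43, not called under spike scaling (-0.36). The oocyte-secreted relatives of Gdf3, Gdf9 and Bmp15, were called lower at the 2-cell and 8-cell steps (Bmp15 at the 2-cell step not under spike scaling).

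Known partners of F-box proteins and of Sall4 were counted last. Of 9 genes of the SCF ubiquitin ligase, 7 were tested. At the 2-cell step 5 were called lower (21.2% of all tested probe sets were) and 2 not called. Under spike scaling all 5 of these calls were lost, and the median difference was -0.66 in place of -0.88. At the 8-cell step 2 were called higher and 5 lower (25.8% and 28.3% of all), with the scaffold Cul1 lower by a difference of -2.24. Under spike scaling 5 were lower and 2 not called at that step. Of 13 NuRD genes, 8 were tested. At the 1-cell step, where Sall4 was highest, 4 were higher and 1 lower (17.3% and 19.8% of all). At the 2-cell step 2 were higher and 4 lower (25.9% and 21.2% of all). Under spike scaling 4 were lower and the other 4 not called at the 1-cell step, and 2 were higher and 2 lower at the 2-cell step. The deacetylase Hdac1 rose by 4.37 at the 2-cell step.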

How the data were processed

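The deposited intensity values, 1 signal per probe set and array on a linear scale, were used as the authors scaled them. Means of array values, trimmed by 2% at each end, lay at 150.1 on every array. The software, scaling target and any batch are not given in the sources used here. In limma 3.58.1 (R 4.3.3), log2(signal + 10.7), the offset being the 25th percentile of all values, was fitted with a mean per stage over all 17 arrays (lmFit, eBayes with an intensity trend, 12 residual degrees of freedom). Tests were two-sided and adjusted within each comparison over all 8067 tested probe sets, and 66 control probe sets were left out.

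Members and lists were chosen with earlier results of these data known. The lists were core factors, other pluripotency network genes, the Nodal and Activin pathway, primed epiblast genes, close relatives, SCF, NuRD, and markers of oocyte, trophectoderm, primitive endoderm, cumulus, oviduct and blood cells. The probe set with the highest mean stood for a list gene. Named were all members, for each tested member the 3 single-symbol probe sets with the highest correlation, and of each list the largest called differences and genes sharing a pathway or family with a member. The fit was tested on simulated data with independent normal noise and no stage-wide shift in scale, so that test does not bear on array scaling. Alternatives covered normalization, offset, filter, variance model, replicate block, arrays in the fit and each array left out. Promoters were matched by symbol (5 of 9 genes).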

Additional observations from a re-analysis of the deposited data

How the results depend on the processing

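Over 55 member differences and 28 alternative settings, 1478 of 1535 values (96.3%) kept their side of the threshold and, where called, their direction. Changes of sign without a call in either fit are counted among these. Of the rest, 39 lost a call, 13 gained one and 5 turned in sign with a call in at least 1 of the fits. All 5 that turned did so with arrays scaled on the spike controls: Fbxo15 (-0.049, adjusted p = 0.896 in limma) and Sall4 (-0.22, 0.587) for 1-cell minus oocyte, and Nr5a2 103728_at (0.32, 0.415), Tbx3 (0.16, 0.711) and Sall4 (0.84, 0.0289) for blastocyst minus 8-cell. The cause was not tested. Spike scaling changed more of the member differences than any other single setting. The settings also include each array left out in turn, and most such arrays belong to neither stage of a comparison. Little change could arise there, so the pooled 96.3% says little about the effect of scaling. The number of members called, both directions together, stayed within 1.5 times of that reported in each of the 5 comparisons under these settings, although spike scaling changed its split at the 1-cell step (3 lower, in place of 2 higher and 1 lower) and the blastocyst step (7 higher and 1 lower, in place of 6 and 4). Calls gained included Nr5a2 102932_at (-0.91, 0.0136) and Gdf3 (-0.90, 0.0367) for 1-cell minus oocyte under spike scaling, and Nr5a2 103728_at for that step under quantile normalization (0.58, 0.0404). At the 2-cell step Tdgf1 gained a call with median centring (-0.78, 0.0277), with array weights (-0.65, 0.0419) and without 2-Cell replicate 3 (-0.80, 0.0339). Nr5a2 103728_at gained one without 2-Cell replicate 1 (0.62, 0.0339). With array weights Gdf3 (1.16, 0.0155) and Tfcp2l1 97193_at (0.53, 0.0322) gained one at that step.

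Samples of different stages with the same replicate number in their titles formed 31 pairs. Their deviations from the stage means correlated at -0.0840 to 0.125 (median 0.015, and -0.011 for other pairs). With 3 or 4 arrays per stage, these values cannot tell whether same-numbered samples were handled together. With the replicate block, the blastocyst step had 5 members higher and 4 lower, the 1 lost being Gdf3 (1.06, adjusted p = 0.0588 in limma). The stricter filter (152.5) left 10 member probe sets. Dim signals limit the differences before the 2-cell stage, where 6 of 11 probe sets never exceeded 41.1.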
